A study of Homo sapiens with 6 samples.

Results

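Imprinted genes that lie outside chromosome 14 were followed after SOX9 siRNA in PANC-1, a long-established cell line of human pancreatic duct cancer. They were taken by symbol from a fixed list of 10: H19, IGF2, CDKN1C, PEG3, PEG10, MEST, PLAGL1, SNRPN, NDN and GNAS. Of these, 7 had a row among the 19830 genes of the authors' comparison, and 6 of the 7 were tested there. PEG3, SNRPN and NDN have no row under these symbols in the table used here and were not analysed here. The list was made to ask whether the rise of the imprinted MEG3 and RTL1 genes on chromosome 14 was shared by imprinted genes of other domains.

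Imprinted genes are expressed mainly from one parental copy, which is set by DNA methylation laid down in the germ line and kept after fertilization. Many of them form clusters with a shared control region, in which paternally expressed genes such as IGF2, MEST and PEG10 tend to favour fetal growth and maternally expressed genes such as H19 and CDKN1C tend to restrain it. Counts of this kind sum both parental copies, so which copy was expressed was not measured.

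PANC-1 cells received 25 nM of a siRNA against SOX9, a transcription factor of pancreatic duct and progenitor cells, or 25 nM of a control siRNA, and were pooled and harvested after 48 hours. There were 2 libraries of total RNA for each siRNA, and all 4 came from the same line. The labels do not state separate cultures for libraries of one siRNA, so a p-value reflects only how these libraries vary, which can be technical. In such bulk RNA, fewer cells that express a gene and less of its RNA in each cell cannot be told apart. SOX9 ChIP-seq, of which there were 2 samples, was not analysed here.

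The values are the authors' DESeq2 comparison, which gives 1 mean normalized count, 1 log2 fold change and 1 standard error for each gene. A gene is called here at an adjusted p under 0.05. The headers do not name the numerator, and a fold change is read as SOX9 siRNA over control siRNA because the authors' deposited table gave SOX9 a negative value, -0.84 (SE 0.26, adjusted p 0.0643 by DESeq2). SOX9 is therefore no check of the labels, and every direction would turn with that reading. The epithelial keratins KRT8, KRT18 and KRT19 and the filament VIM had mean normalized counts of 203350, 130452, 99583 and 133073 in the authors' deposited table. There, PTPRC of leukocytes and PECAM1 of endothelium were near 0, at 2.28 and 0.551. Over all markers with a row, mean normalized counts summed to 87.4 for 5 leukocyte, 12.8 for 5 endothelial, 863 for 8 fibroblast and 1595 for 5 neural genes. Of the fibroblast markers, 1 of 4 tested was called, COL1A1, at a log2 fold change of 0.98 by DESeq2 in the authors' deposited table (adjusted p 0.0445). EPCAM, an epithelial adhesion protein, fell by 1.76 on the log2 scale (adjusted p 1.85e-05, DESeq2, the authors' deposited table). The other epithelial markers, KRT7, KRT8, KRT18, KRT19 and CDH1, were above 0 and not called, and so was VIM. KRT8 was at 0.55, KRT18 at 0.50 and KRT19 at 0.50 on the log2 scale by DESeq2 (adjusted p 0.0786, 0.106 and 0.259, the authors' deposited table).

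The table has no column for a single library, but its means carry 15 digits and the whole counts behind them could be recovered. The lowest means belong to genes with 2 counts in all, and their steps gave the size factor of each library, from 0.908 to 1.131. The libraries carry no sample name and are lettered A to D from the highest to the lowest size factor. For each of 3505 tested genes with a mean of 50 to 500, whole counts were found that gave the deposited mean and also the deposited log2 fold change to within 1e-06. They did so with B and D as the numerator and A and C as the denominator, and the median distance was 2.90e-09. The counts were searched with this split only. For the same counts, plain log2 ratios of A and B against C and D, or A and D against B and C, had median distances of 0.21 and 0.15. Those 2 splits were not searched for counts of their own, so these distances are no test of the split. The letters stand for sides of the authors' fold change and not for samples, no replicate number belongs to them, and the counts served to describe and entered no test.

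Promoter windows are shown first, for the motif of a factor that keeps imprints. ZFP57, a zinc finger protein that keeps methylation at imprinted control regions, binds TGCCGC when its CpG is methylated. RefSeq windows of 300 bases, from 250 before to 50 after a transcript start on GRCh38.p14, were at hand for 6 of the 10 genes, with 22 starts in all. TGCCGC on either strand was in 9 of these 22 windows, beside 16.7% of all 35116 windows. The 9 windows belonged to 5 of the 6 genes. Some of these genes have several windows, so that number of genes cannot be set beside the share of windows. Some starts of MEST lie close together and their windows share bases. H19 had 1 window, without the motif and with 6 CpG. MEST and PLAGL1 are shown by the window with most matches, with 3 and 2. Capitals mark TGCCGC or its reverse complement GCGGCA, and 2 of the matches of MEST overlap. Each line runs 5′ to 3′ on the strand of the gene.
H19, chr11:2001217-2001516, minus strand: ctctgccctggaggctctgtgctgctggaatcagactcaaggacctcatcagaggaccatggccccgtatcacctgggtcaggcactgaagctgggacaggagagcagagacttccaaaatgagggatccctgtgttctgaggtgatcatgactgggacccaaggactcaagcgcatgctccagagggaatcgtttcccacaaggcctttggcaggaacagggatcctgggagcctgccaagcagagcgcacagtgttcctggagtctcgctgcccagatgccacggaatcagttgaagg
MEST, chr7:130491835-130492134, plus strand: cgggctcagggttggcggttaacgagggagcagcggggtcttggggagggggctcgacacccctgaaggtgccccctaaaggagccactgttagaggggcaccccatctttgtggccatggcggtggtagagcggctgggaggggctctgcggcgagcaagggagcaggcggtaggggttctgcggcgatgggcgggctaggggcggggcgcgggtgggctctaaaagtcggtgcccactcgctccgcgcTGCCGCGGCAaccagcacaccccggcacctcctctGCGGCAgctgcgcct
PLAGL1, chr6:144008210-144008509, minus strand: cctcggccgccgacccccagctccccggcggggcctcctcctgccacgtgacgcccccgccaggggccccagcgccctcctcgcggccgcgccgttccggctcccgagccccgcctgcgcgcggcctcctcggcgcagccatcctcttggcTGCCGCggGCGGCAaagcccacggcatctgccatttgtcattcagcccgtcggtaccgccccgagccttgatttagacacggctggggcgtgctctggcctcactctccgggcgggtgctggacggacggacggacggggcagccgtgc

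The MEST window held 25 CpG and the PLAGL1 window 39, beside a median of 14 over all windows and 17 over the 22. Both were picked for TGCCGC, which itself holds a CpG, so their CpG numbers do not stand for the other starts. SOX proteins bind a core of ACAAT, searched as AACAAT or ACAATG on either strand, which overlap in AACAATG. Either was in 3 of the 22 windows, 1 each of PLAGL1, MEST and SNRPN, and in 16.7% of all windows. The windows printed for H19, MEST and PLAGL1 hold neither. These are matches of letters, and no binding was measured here.

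H19 and MEST also carry microRNAs, shown with the seed (bases 2 to 8) in capitals from RefSeq on GRCh38.p14. miR-675 is cut from the H19 transcript and miR-335 lies within MEST, and the 4 seeds differ.
miR-675-5p: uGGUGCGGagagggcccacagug
miR-675-3p: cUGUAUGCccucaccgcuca
miR-335-5p: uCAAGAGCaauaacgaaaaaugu
miR-335-3p: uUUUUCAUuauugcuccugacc
MIR335 had a row with a mean normalized count of 2.04 in the authors' deposited table and was not tested.

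None of the 6 tested genes was called by DESeq2 in the authors' table, and none had an unadjusted p under 0.05. Over all 14063 tested genes 1.81% were called, 0.868% as higher and 0.939% as lower, and 11.1% had an unadjusted p under 0.05. Of the 6, 3 had a positive and 3 a negative log2 fold change. Their median was 0.03 beside -0.02 for all tested genes. Adjusted p ran from 0.713 for CDKN1C to 0.982 for PLAGL1 in the authors' deposited table. PEG10, MEST, PLAGL1 and GNAS had log2 fold changes between -0.22 and 0.10, and those of H19 and CDKN1C were 0.50 and 0.80 with intervals that span 0.

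**Figure D1:**
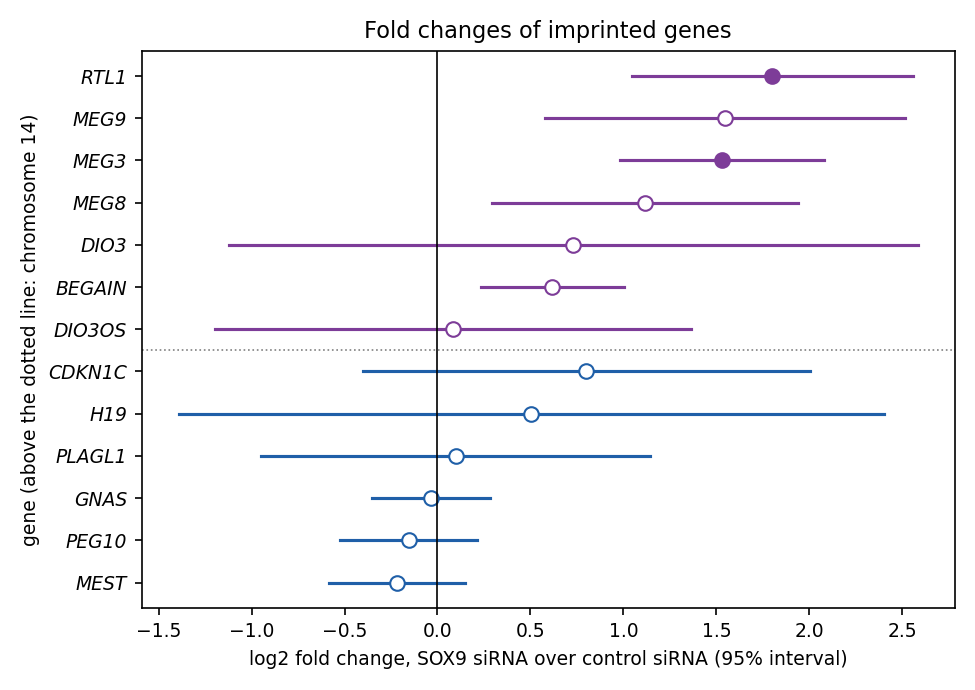
Log2 fold change, SOX9 siRNA over control siRNA, of the 6 tested imprinted genes outside chromosome 14 (blue) and 7 tested genes of the chromosome 14 domain (purple), with 95% intervals as lines. Filled points have an adjusted p under 0.05: MEG3 and RTL1 are filled, and the intervals of all 6 blue genes span 0.

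H19, a long noncoding RNA expressed from the maternal copy, had very different counts in the 4 libraries. Its normalized counts were 6834 in A, 11642 in B, 21699 in C and 28839 in D, from 7727, 11570, 21390 and 26172 counts. C and D lay above A and B, each side of the fold change held 1 low and 1 high library, and the sides overlapped. The highest library was 4.22 times the lowest. These counts depend on a choice made after a first solution had been seen. Another solution for H19 was 8615 in A, 34898 in B, 19919 in C and 5583 in D. Without the small ridge term of the authors' software, it lay nearer to the deposited fold change, at a distance of 1.05e-06. The counts given above were then at 5.98e-06. With that term the distances were 4.94e-06 and 5.41e-09. The term also brought 3478 of the 3505 other genes, each with 1 solution under the split used, closer to their deposited fold changes. In both solutions each side of H19 held libraries far apart. The authors' deposited table gave H19 a log2 fold change of 0.50 (SE 0.97, 95% interval -1.39 to 2.40, adjusted p 0.94 by DESeq2). All of the 500 tested genes nearest to it in mean count had a lower standard error, and their median was 0.17.

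IGF2, the fetal growth factor that shares an enhancer region with H19, was hardly detected. It had 1 count in A, 0 in B, 5 in C and 4 in D, a mean normalized count of 2.59, and was not tested in the authors' table. H19 and IGF2 lie side by side on chromosome 11, and the counting may not use strand, so reads of overlapping antisense genes such as IGF2-AS cannot be told apart from IGF2.

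CDKN1C, a CDK inhibitor that restrains cell division and is expressed from the maternal copy, had normalized counts of 61.9 in A, 118 in B, 201 in C and 339 in D. Again C and D lay above A and B, and the sides overlapped. The highest library was 5.48 times the lowest. For CDKN1C the authors' deposited table listed a log2 fold change of 0.80 (SE 0.61, 95% interval -0.40 to 2.00, adjusted p 0.713 by DESeq2). Of the 500 tested genes nearest in mean count, 98.2% had a lower standard error.

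PLAGL1, a zinc finger transcription factor that halts the cell cycle and is expressed from the paternal copy, went the other way between libraries. Its normalized counts were 114 in A, 113 in B, 52.8 in C and 66.1 in D, so that C and D lay below A and B and the sides overlapped. DESeq2 in the authors' deposited table gave PLAGL1 a value of 0.10 on the log2 scale (SE 0.53, 95% interval -0.95 to 1.14, adjusted p 0.982). HYMAI, a noncoding RNA that overlaps PLAGL1, had a mean normalized count of 5.48 in the authors' deposited table and was not tested.

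**Figure D2:**
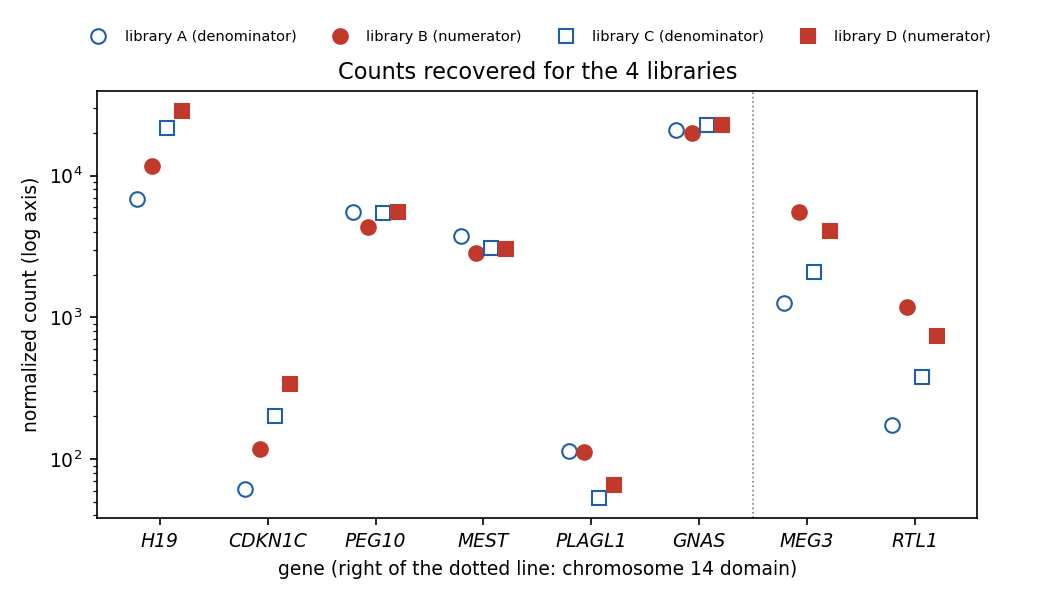
Normalized counts in each of the 4 recovered libraries, on a log axis, for the 6 tested imprinted genes and for MEG3 and RTL1. Blue open points (A, C) are the denominator and red filled points (B, D) the numerator of the authors' fold change. H19 runs from 6834 to 28839. MEG3 and RTL1 have both red points above both blue points, which adds no support, since their rise was known when they were shown. Sides did not overlap in 41.8% of the 3505 genes with a mean of 50 to 500.

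The other paternally expressed growth genes were even across libraries. PEG10, a gene derived from a retrotransposon that the placenta needs, had normalized counts of 5569 in A, 4351 in B, 5449 in C and 5543 in D. Its sides overlapped, and B was the low library. PEG10 stood at a log2 fold change of -0.16 by DESeq2 (SE 0.19, 95% interval -0.52 to 0.21, adjusted p 0.875, the authors' deposited table).

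MEST, which resembles hydrolase enzymes, had normalized counts of 3762 in A, 2835 in B, 3070 in C and 3039 in D. It was the 1 gene of the 7 whose sides did not overlap, with C just above D, and 41.8% of the 3505 genes with a mean of 50 to 500 had sides that did not overlap. MEST stood at -0.22 on the log2 scale by DESeq2 (SE 0.19, 95% interval -0.58 to 0.15, adjusted p 0.765, the authors' deposited table). MESTIT1, a noncoding RNA antisense to MEST, stood at 0.00 on the log2 scale, with a mean normalized count of 28.0, in the authors' deposited table.

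GNAS encodes the stimulatory G protein alpha subunit that switches on adenylyl cyclase, along with imprinted transcripts from other first exons that 1 row cannot separate. Its normalized counts were 21115 in A, 20020 in B, 22674 in C and 22710 in D, the narrowest spread of the tested 6, with the highest library 1.13 times the lowest. By DESeq2, GNAS had a log2 fold change of -0.04 (SE 0.16, 95% interval -0.35 to 0.28, adjusted p 0.978, the authors' deposited table). Antisense transcripts of this locus may add to the row.

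**Figure D3:**
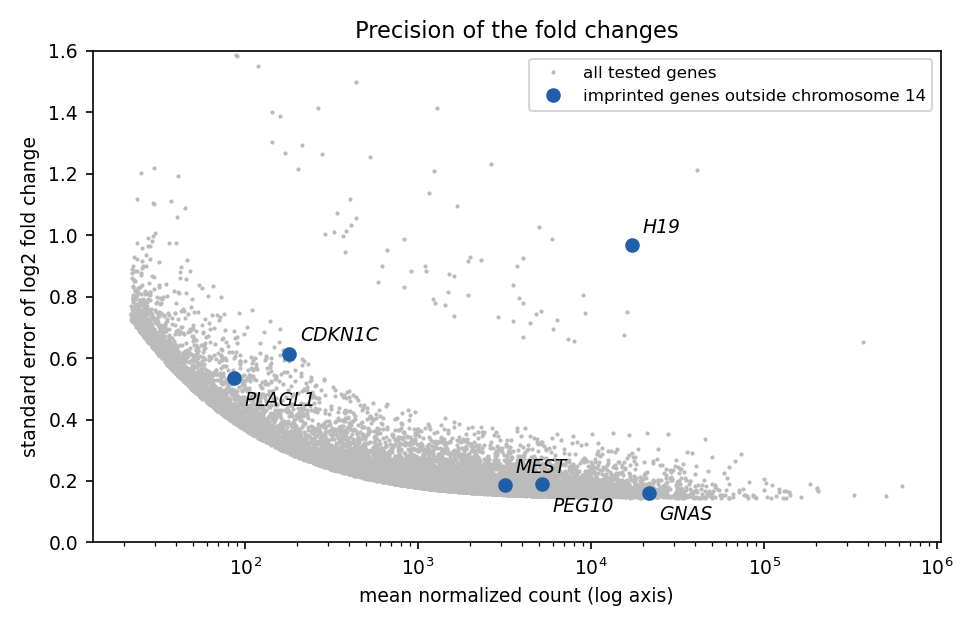
Standard error of the log2 fold change against mean normalized count (log axis) for all tested genes (grey) and the 6 tested imprinted genes outside chromosome 14 (blue); 5 grey genes lie above the axis limit of 1.6. H19, at 0.97, stands above all of the 500 genes nearest to it in mean count, while GNAS, PEG10 and MEST lie in the main band.

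On chromosome 14, where the rise was known when the list was made, 2 of 7 tested imprinted genes were called, beside 1.81% of all tested genes. At an unadjusted p under 0.05 by DESeq2 there were 5 of the 7, all higher, beside 11.1% of all tested genes. All 7 were above 0. MEG3, a maternally expressed noncoding RNA, had normalized counts of 1257 in A, 5561 in B, 2092 in C and 4106 in D, and rose by 1.53 on the log2 scale by DESeq2 (SE 0.28, adjusted p 4.52e-05, the authors' deposited table). RTL1, a paternally expressed gene derived from a retrotransposon, had 174 in A, 1181 in B, 378 in C and 740 in D, and rose by 1.80 on that scale by DESeq2 (SE 0.39, adjusted p 0.0014, the authors' deposited table). In both genes B and D lay above A and C, which adds no support, since their rise was known beforehand. Sides did not overlap in 41.8% of the 3505 genes with a mean of 50 to 500. The other 5, MEG9, MEG8, DIO3, BEGAIN and DIO3OS, were at 1.55, 1.12, 0.73, 0.62 and 0.08 on the log2 scale of the authors' deposited table and were not called. DIO3, a deiodinase at the far end of the domain, had 130 in A, 301 in B, 438 in C and 642 in D, the same order of libraries as H19 and CDKN1C.

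How the values of these genes lay beside that of RTL1 depended on the gene. The value of RTL1, 1.80, lay above the 95% intervals of GNAS, PEG10, MEST and PLAGL1, whose upper ends were 0.28, 0.21, 0.15 and 1.14. It lay inside those of H19 and CDKN1C, whose upper ends were 2.40 and 2.00. With the standard errors in the authors' deposited table taken as independent, RTL1 exceeded GNAS by 1.84 (95% interval 1.02 to 2.66), PEG10 by 1.96 (1.11 to 2.80), MEST by 2.02 (SE 0.43) and PLAGL1 by 1.70 (0.41 to 2.99) on the log2 scale. It exceeded H19 by 1.30 (-0.75 to 3.34) and CDKN1C by 1.00 (-0.42 to 2.42), intervals that span 0. The authors' intervals for H19 and CDKN1C thus hold both 0 and the value of RTL1. No p is given, since RTL1 was chosen for its rise, which can enlarge these differences. All values come from the same 4 libraries and need not be independent, so the intervals of the differences are a description only.

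Genes next to the 10 were not called either. The 5 nearest genes of the table on each side, by gene order in RefSeq, came to 80 different genes, of which 54 were tested and 0 were called, beside 1.81% of all tested genes. At an unadjusted p under 0.05 there were 3, beside 11.1% of all tested genes. The median log2 fold change of the 54 was 0.00. Around PEG3, which has no row, 9 tested zinc finger and other genes had log2 fold changes from -0.36 to 0.47. Around SNRPN and NDN, which share the same 6 tested neighbours, values ran from -0.55 to 0.06.

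**Figure D4:**
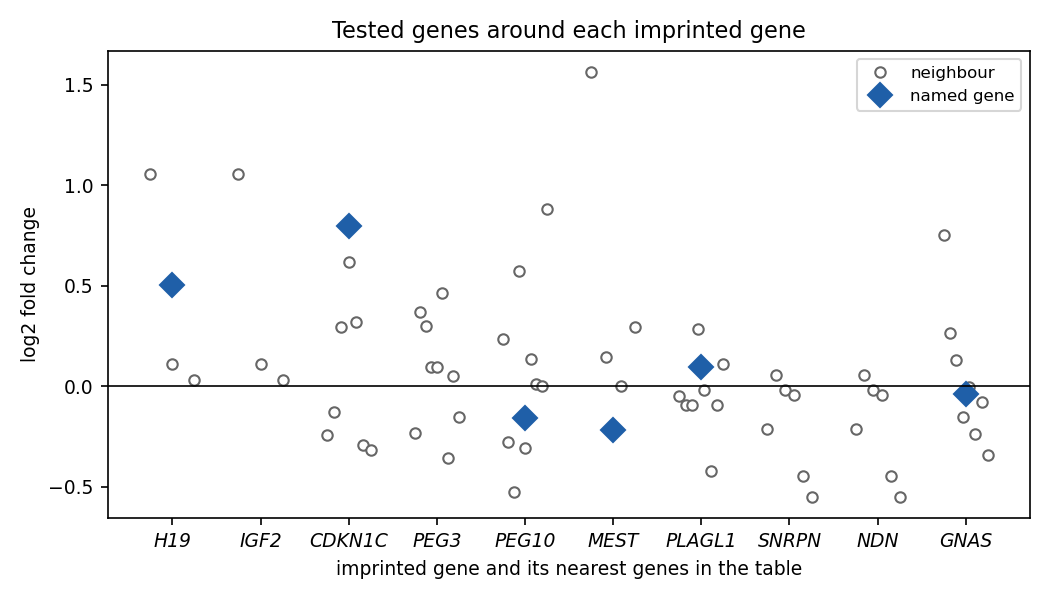
Log2 fold change of each tested imprinted gene (blue diamond) and of the tested genes among the 5 nearest on each side in the table (open circles). The circle at 1.56 beside MEST is CPA4, and SNRPN and NDN share their circles. An adjusted p under 0.05 was reached by 0 of the 54 neighbours, beside 1.81% of all tested genes.

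Within the Prader-Willi region of chromosome 15, the noncoding RNA PWAR5 had normalized counts of 650 in A, 425 in B, 670 in C and 478 in D. B and D were the low libraries and the sides did not overlap. Sides did not overlap in 41.8% of the 3505 genes with a mean of 50 to 500. PWAR5 was named for its small p, so its sides add no support. DESeq2 did not call PWAR5, at -0.55 on the log2 scale (SE 0.21, adjusted p 0.193, the authors' deposited table). UBE3A, a ubiquitin ligase of the same region, was at -0.24 on the log2 scale by DESeq2 (adjusted p 0.759, the authors' deposited table). SNURF, which shares its transcript with SNRPN, had a mean normalized count of 1.01 in the authors' deposited table and was not tested. MKRN3 and PWARSN, named after their values were seen, were at -0.04 and -0.45 on the log2 scale in the authors' deposited table.

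A wider list of 75 other genes reported as imprinted outside chromosome 14 was read in the same way. Of these, 57 had a row, 42 were tested and 0 were called, beside 1.81% of all tested genes. At an unadjusted p under 0.05 there were 4, of them 2 higher and 2 lower, beside 11.1% of all tested genes. The median log2 fold change was -0.04, with 18 genes above 0 and 24 below. CPA4, a carboxypeptidase near MEST, came closest. It had normalized counts of 68.1 in A, 207 in B, 40.6 in C and 115 in D, with B and D above A and C. CPA4 too was named for its small p, so its sides add no support. CPA4 was at 1.56 on the log2 scale by DESeq2 (SE 0.48, adjusted p 0.0549, the authors' deposited table) and was not called. With only genes of a mean of at least 100 adjusted together, its adjusted p was 0.049.

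ERAP2, a peptidase that trims antigens, was at 0.52 on the log2 scale and WT1, a zinc finger factor, at -0.44 by DESeq2 (adjusted p 0.282 and 0.361, the authors' deposited table). PHLDA2, a growth restrainer of the CDKN1C domain, had normalized counts of 1768 in A, 2156 in B, 1843 in C and 2346 in D. PHLDA2 was at 0.32 by DESeq2 (adjusted p 0.48) and SGCE, a sarcoglycan that adjoins PEG10, at 0.58 (adjusted p 0.498), both on the log2 scale of the authors' deposited table. IGF2R, which clears IGF2, and AIM1 stood at -0.08 and 0.07 on that log2 scale of the authors' deposited table.

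Partner genes were grouped by role. Beside the counts of each group stand 1.81% called, and 11.1% at an unadjusted p under 0.05, of all tested genes. Factors that set or keep imprints, such as DNMT1, UHRF1 and TRIM28, had 0 calls among 25 tested genes with a median log2 fold change of -0.19, 18 of them below 0 and 1 at an unadjusted p under 0.05. The gene at an unadjusted p under 0.05 was EHMT2, a histone methyltransferase, named after its value was seen, at -3.60 on the log2 scale with a wide 95% interval of -5.93 to -1.26 and a mean normalized count of 40.9 (adjusted p 0.0982 by DESeq2, the authors' deposited table). TRIM28, the corepressor that ZFP57 recruits, stood at -0.12 on the log2 scale of the authors' deposited table. ZFP57 has no row in the table used here and was not analysed here.

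Genes of the IGF axis had 1 rise among 19 tested, beside 0.868% of all tested genes called as higher. Their median was -0.03. The rise was that of IGF2BP3, an RNA-binding protein that binds IGF2 mRNA. Its normalized counts were 4543 in A, 8703 in B, 6058 in C and 8322 in D. B and D lay above A and C, which adds no support, since IGF2BP3 was named for its call. By DESeq2 in the authors' deposited table, IGF2BP3 rose 1.61-fold (95% interval 1.23 to 2.11, adjusted p 0.0403). The call ended when p was adjusted over every gene or set against the spread of all Wald statistics.

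G protein alpha subunits and cAMP genes, the partners of GNAS, had 0 calls among 30 tested and a median of 0.01. At an unadjusted p under 0.05 there were 4, all lower. For this and the next groups, the shares of all tested genes are 1.81% called and 11.1% at an unadjusted p under 0.05. The family of retrotransposon-derived genes to which PEG10 and RTL1 belong had 1 rise among 13 tested, which was RTL1, and a median of 0.21. Type II MAGE genes, the family of NDN, had 0 calls among 7, and at an unadjusted p under 0.05 also 0. MAGED1 of that family stood at 0.09 on the log2 scale of the authors' deposited table. The CIP/KIP inhibitors with cyclins and kinases, the partners of CDKN1C, had 0 calls among 12 and a median of -0.23. Of the 12, 6 had an unadjusted p under 0.05 by DESeq2, all lower, beside 11.1% of all tested genes. All 6 were cyclins or kinases. The inhibitors CDKN1A and CDKN1B, named after their values were seen, were at 0.20 and 0.08 on the log2 scale, and CDKN1C at 0.80. CCND1, cyclin D1, was at -0.39 on the log2 scale by DESeq2 (adjusted p 0.406, the authors' deposited table). Proteins of the spliceosomal core, to which SNRPN belongs, had 0 calls among 12, all 12 below 0 with a median of -0.20, and 2 at an unadjusted p under 0.05. SNRPB, the near-identical relative of SNRPN, was at -0.43 on the log2 scale by DESeq2 (adjusted p 0.183, the authors' deposited table), and reads of the pair may be shared.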

How the data were processed

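Per the submitters' processing notes, the authors used HISAT2 2.0.5, featureCounts and DESeq2 1.18.1, with builds hg19 and mm10 listed without a role. Strand settings are not given in the sources used here. Per the file headers, the deposited mean normalized count is a signal, counts divided by the authors' size factors and averaged over libraries. The deposited log2 fold change and standard error are the authors' log2 values, the Wald statistic is the authors' score, and p-values, raw and adjusted, were deposited by the authors. Of 19830 genes, 14063 have an adjusted p, and the other 5767 had means of 21.93 or less. Depth of single libraries beyond the recovered counts is unknown.

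Intervals are 1.96 standard errors each way. Counts of single libraries were solved with Python 3.11.15, numpy 2.4.6 and scipy 1.17.1 from the mean, the standard error and the fold change. The solution used the negative binomial fit of the authors' software, and the method was tested on simulated data made with the same fit. The simulation also used the same split of the libraries, so it did not test which split is right. The means set in it were below those of H19, GNAS, PEG10, IGF2BP3, MEST and MEG3, so it does not cover these genes. Candidate solutions numbered 228 for H19 and 623 for GNAS, and the one closest to the deposited fold change was kept. The ridge term of that fit was added after a first solution, and it changed the counts of H19. The design left these libraries unlabelled and out of comparisons. Saying which side of the fold change each belongs to, and whether sides overlap, was added after the counts were seen, as was the choice of genes outside the naming rule whose counts are given. The smallest gap to another solution was that of H19, 4.94e-06 in log2 fold change beside 5.41e-09 for the solution kept. Older symbols were matched through RefSeq, whose GRCh38.p14 order gave neighbours. Named genes were all 10 listed genes, every called gene of a list up to 4, the 6 smallest p and 3 highest means of the wider imprinted list, tested chromosome 14 genes, and each partner list's gene of highest mean not called. Members and lists were chosen with earlier results of these data known. Alternatives were other mean minimums, adjustment over every gene, centring, an empirical null, a threshold of 0.1 and a test against 1.5-fold.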

Additional observations from a re-analysis of the deposited data

How the results depend on the processing

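None of the 6 tested genes was called under the 7 alternatives to the authors' test, of which a mean of at least 100 left 5 genes, without PLAGL1. Centring moved fold changes by 0.02 on the log2 scale, and the other alternatives leave them as deposited, so these say nothing of their sign. Their lowest adjusted p in any setting was 0.647. With a mean of at least 100, or at an adjusted p under 0.1, 1 other imprinted gene and 1 neighbour passed in place of 0, which is CPA4 each time. With 10 neighbours on each side 1 of 108 tested genes passed, beside 1.81% of all tested genes. The one that passed was VTA1 near PLAGL1, named after its value was seen (1.69-fold higher and adjusted p 0.0152 by DESeq2, the authors' deposited table). Called chromosome 14 genes went from 2 to 4 at an adjusted p under 0.1 and to 0 against a 1.5-fold change, where 3 genes in all passed. Called partner genes went from 2 to 1 when adjusted over every gene and with the empirical null, where IGF2BP3 was lost, to 0 against 1.5-fold, and to 3 at an adjusted p under 0.1 with EHMT2. The null was 1.13 times as wide as assumed, and all calls fell from 254 to 93 with it. Searching AACAATG alone left 1 of the 22 promoter windows in place of 3. No paired analysis was possible because the replicate numbers in the sample titles cannot be matched to the recovered libraries, which carry no sample name. A comparison within the sets A with B and C with D, which were seen only in the counts, was not run. That H19 and CDKN1C were not called thus holds for the authors' unpaired comparison, and a comparison within sets was not tested. A fit without each library in turn was not run either, since the recovered libraries carry no label. With 2 libraries for each siRNA, the spread of H19 and CDKN1C limits what can be seen.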

Other observations

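The 4 libraries differed in a way that the sides of the fold change do not give. Across the 3505 genes with a mean of 50 to 500, the log2 ratio of C to A and that of D to B had a Pearson correlation of 0.66, a description across genes in which the ratios share no library. For B to A and D to C it was 0.65. The median size of these ratios was 0.33 for C to A and 0.27 for D to B, beside 0.35 for B to A and 0.20 for D to C. This grouping of libraries was noticed in the counts and follows no label. For the H19 counts kept and for CDKN1C, C was 3.18 and 3.24 times A, and D was 2.48 and 2.88 times B. PLAGL1 stood on the other side, with C at 0.46 of A and D at 0.59 of B. Within these sets, the numerator library over the denominator library was 1.70 (B to A) and 1.33 (D to C) for the H19 counts kept, and 1.90 and 1.69 for CDKN1C. The other solution for H19 had 4.05 and 0.28. The same ratios were 0.99 and 1.25 for PLAGL1, 0.78 and 1.02 for PEG10, 0.75 and 0.99 for MEST, and 0.95 and 1.00 for GNAS. RTL1 had 6.78 and 1.96. These are values without a test, since the sets were chosen after the counts were seen. What sets C and D apart from A and B is not in the labels used here, and its part in the wide intervals of H19, CDKN1C and PLAGL1 was not tested.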
